A study of Arabidopsis thaliana with 6 samples.

Results

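The 200 genes described here had no count in any of 3 wild-type pollen libraries and were the most abundant such genes in pollen carrying the paps1-3 allele. They were chosen from the same counts: among 33323 nuclear genes, 10275 had 0 counts in all wild-type libraries, and these were ranked by the lowest of their 3 paps1-3 values in CPM, the count of a gene scaled to a fixed total of gene counts in each library. The first 200 were kept, which is 1.95% of the genes at 0 in wild type. Since both genotypes entered the choice, the difference between paps1-3 and wild type is given for these genes as a description, with no test.

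The series compares 3 libraries of paps1-3 pollen with 3 libraries of wild-type pollen of Arabidopsis thaliana, accession Col, each set lettered A to C. Pollen of both groups came from plants written as PAPS1 pLat52::RFP / paps1-3, in which a red fluorescent protein marks pollen through the LAT52 promoter, a promoter active in the vegetative cell of pollen, and grains were sorted by that fluorescence. The plants thus carried both PAPS1 alleles, and the labels do not spell out which fraction was the fluorescent one, how many plants were pooled, or whether the letters mark separate plants, so errors measure only the spread between these libraries. The title given to the series names RNA-directed DNA methylation next to PAPS1. In bulk pollen, fewer cells of a type and less RNA per cell cannot be told apart.

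PAPS1 is a nuclear poly(A) polymerase, one of the enzymes that add the poly(A) tail to the 3′ end of messenger RNA, which affects export, stability and translation. Mature pollen holds a large vegetative cell, which grows the pollen tube, with the sperm cells inside it, and its RNA is a narrow set compared with that of roots or leaves. Genes without transcripts in pollen therefore include many that work in other organs, in the seed or in the response to stress, and also transposon-derived loci held silent by DNA methylation.

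The libraries held 36697737, 41176647 and 19861313 gene counts in A, B and C of paps1-3, against 31909683, 32755496 and 37685541 in wild type. PAPS1 itself had 18, 9 and 3 counts in paps1-3 and 32, 25 and 20 in wild type. A defining transcript of the vegetative cell was abundant in both groups: VGD1, a pectin methylesterase of the pollen tube, averaged 14940 ± 1126 CPM in paps1-3 and 16110 ± 117 in wild type (SD, n = 3 each). Other markers of that cell differed: VGDH1 averaged 4513 ± 394 and 7036 ± 471 CPM, and HA6 505 ± 46.9 and 28.6 ± 1.26. Of 16 tested, edgeR called 6 higher and 7 lower by library totals, against 70.2 and 9.72% of all genes. With the TMM factors explained below, 3 were higher and 10 lower, VGD1 among the latter, against 42.3 and 29.9%. Mitochondrion-encoded genes took 2.57, 3.01 and 4.22% of gene counts in A, B and C of paps1-3, against 0.0523, 0.0353 and 0.0340% in wild type. At least 1 count was found for 30193, 27311 and 24455 nuclear genes in A, B and C of paps1-3, against 19594, 16804 and 18235 in wild type. Scaling mattered for every comparison across all genes: over the genes tested, the median log2 fold change was 0.37 with TMM factors, which correct for the composition of the libraries, and 1.62 by library totals.

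All 200 genes were of low abundance. Together they had 8371, 6982 and 3057 counts in A, B and C of paps1-3, or 228, 170 and 154 CPM, against 0 in each wild-type library. These sums are 0.0228, 0.0170 and 0.0154% of all gene counts in paps1-3. The gene of rank 1 stood at place 6422 of all nuclear genes by its lowest paps1-3 value, and the gene of rank 200 at place 13178. The lowest paps1-3 value ran between 0.316 and 3.23 CPM with a median of 0.497, and 25 of the genes reached 1 CPM in every paps1-3 library. In library C, the shallowest, 66 had under 10 counts.

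A total of 0 over the 3 wild-type libraries allows up to 3 counts in 102350720, or 0.0293 CPM, counting error only. Against that limit the mean level in paps1-3 was 12.5-fold higher for the weakest gene and 142.5-fold higher for the strongest, with a median of 25.4, on library totals. These folds are no lower bounds: the genes were chosen for that 0, and the limit leaves out the spread between libraries. All 200 passed the filter on low counts and all 200 were called higher by edgeR, where 42.3% of all genes tested were called higher and 29.9% lower. By library totals these shares over all genes were 70.2 and 9.72%. The choice of genes fixed that count, and nothing is read from it.

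**Figure D1:**
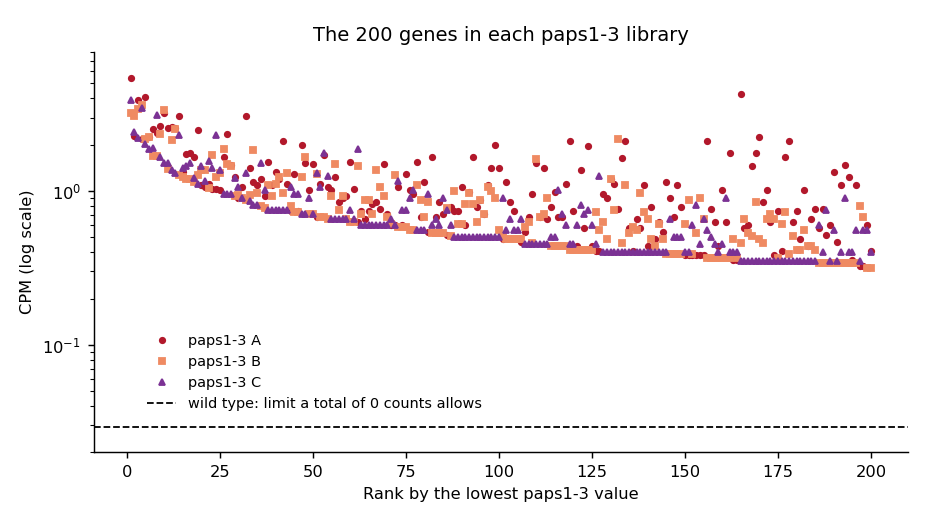
CPM (log scale) of each of the 200 genes in paps1-3 libraries A, B and C, by rank, with a dashed line at 0.0293 CPM, the limit that 0 counts over the 3 wild-type libraries allows. The lower edge of the points falls to 0.316 CPM at rank 200 and AT4G02940 at rank 1 reaches 5.42 CPM in library A.

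The boundary of the list was not sharp. At rank 200, 14 genes were tied at 0.316 CPM, each with 13 counts in library B, for which the exact Poisson interval is 0.168 to 0.540 CPM. By order of identifier, AT1G19320, a thaumatin-like pathogenesis-related gene, and RPL21C, a plastid ribosomal protein gene, stood inside. The other 12 stood outside, among them AT1G48460, SmD3, AT1G79060, AT2G07775 and PIP2E. SmD3, which encodes a core protein of the spliceosome, had 22, 13 and 12 counts in A, B and C of paps1-3, and RPL21C had 15, 13 and 8. The limit of 0 wild-type counts set most of the membership: with up to 1 count allowed over the 3 wild-type libraries, 78 of the 200 genes would have stayed among the first 200, and with up to 3 counts, 29. The first 20 stayed in under both limits.

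The first 20 genes held 22.7, 24.5 and 25.2% of the counts of the list in paps1-3 A, B and C. Rank 1 went to AT4G02940, annotated as an oxygenase dependent on iron and 2-oxoglutarate, with 199, 133 and 77 counts in A, B and C of paps1-3, or 5.42, 3.23 and 3.88 CPM, against 0 in wild type. Its mean of 4.18 ± 1.13 CPM (SD, n = 3) was 142.5-fold above the wild-type limit. Library A was the highest and library B the lowest.

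Of the first 20, AT5G35370 and AT1G34300 encode protein kinases. By product name that class made up 3.0% of the list, against 3.71% of the other silent genes counted in every paps1-3 library and 4.11% of nuclear genes. AT5G35370, an S-locus lectin protein kinase, had 80, 149 and 69 counts in A, B and C of paps1-3, and AT1G34300, another lectin protein kinase, had 93, 70 and 38. AT5G35370 lies over another annotated gene, and these libraries do not mark strand, so reads of the overlap cannot be assigned by strand. Those that HTSeq called ambiguous were counted for neither gene. RBOHD, the plasma membrane NADPH oxidase that makes reactive oxygen in immune signalling, had 91, 52 and 22 counts. ACS7, an enzyme of ethylene synthesis, had 65, 49 and 30 counts, and KIN2, a small protein induced by cold and abscisic acid, had 97, 97 and 33. These genes showed no common order of libraries: AT5G35370 was lowest in A and RBOHD highest there.

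Several others of the first 20 encode enzymes or carriers. AT3G57220, a glycosyl transferase of family 4, had 87, 70 and 62 counts in A, B and C of paps1-3, against 0 in wild type. STT3B, a catalytic subunit of the complex that attaches N-glycans to proteins, had 113, 52 and 46, and TPPB, which dephosphorylates trehalose 6-phosphate, had 64, 49 and 29. NRAMP4, which releases iron and manganese from the vacuole, had 40, 56 and 29. In CPM, NRAMP4 stayed between 1.09 and 1.46 over the 3 libraries, while STT3B ran between 1.26 and 3.08.

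Among the rest of the first 20, AT5G27120, a NOP56-like protein of the particles that guide ribosomal RNA modification, took rank 2 with 84, 127 and 48 counts in A, B and C of paps1-3, and AT3G11250, of the ribosomal protein L10 family, rank 15 with 49, 51 and 28. AT5G48560, a basic helix-loop-helix factor that the annotation also names CIB2, had 82, 92 and 37. The remaining 7 were the pseudogenes AT5G56747, AT1G36200, AT1G35090 and AT2G20460, the unnamed AT2G31480, the glycine-rich AT4G18280 and AT2G07815, whose sequence matches the mitochondrial genome.

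**Figure D2:**
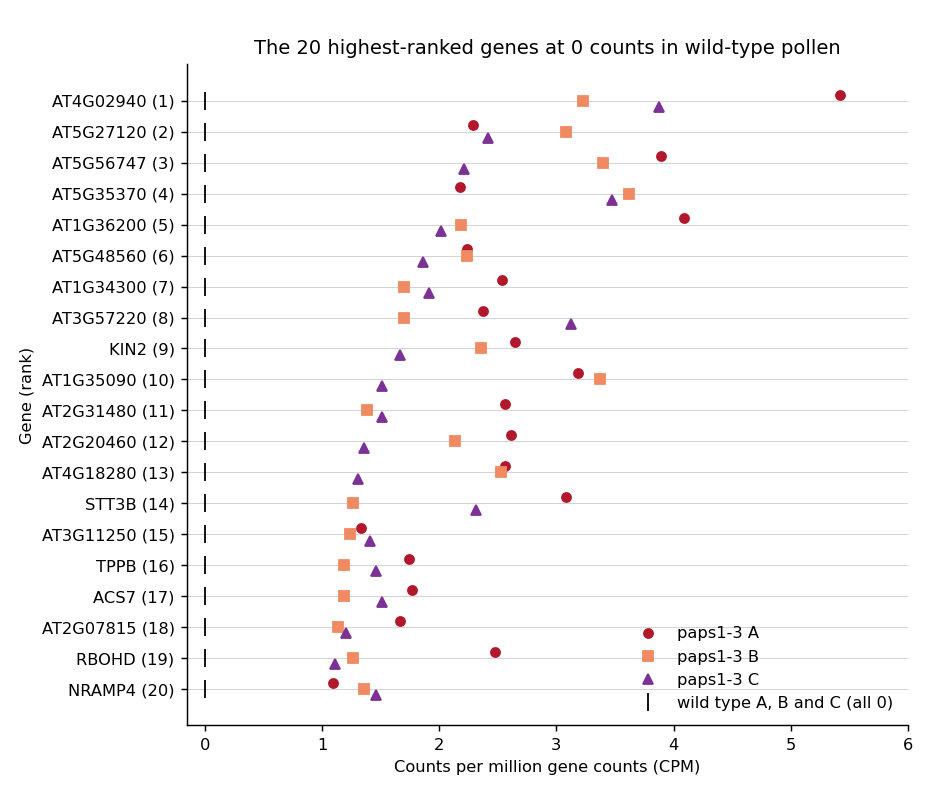
CPM of the 20 highest-ranked genes in paps1-3 libraries A, B and C, with the wild-type libraries at 0. AT4G02940 lies between 3.23 and 5.42 CPM, and the values of NRAMP4 at rank 20 lie between 1.09 and 1.46.

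Levels between genes are comparable only per length of transcript. Per kilobase, the highest were the pseudogene AT1G35090 at 3.66 ± 1.40 CPM per kb, the pseudogene AT5G56747 at 3.42 ± 0.93, KIN2 at 2.96 ± 0.67 and AT4G18280 at 2.19 ± 0.73 (SD, n = 3). AT2G19750, a gene of the ribosomal protein S30 family ranked 62 by CPM, followed at 2.00 ± 0.96. The whole list ran between 0.124 and 3.66 CPM per kb with a median of 0.501.

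Ribosomal protein genes were the product class that stood out most from the rest of the silent genes. Classes were assigned by words in the product names. Of the 200 genes, 9 named a ribosomal protein or translation, or 4.5% (95% Wilson interval 2.38 to 8.33%), against 0.834% of the 2639 other genes at 0 in wild type with a count in every paps1-3 library and 1.40% of all nuclear genes. The 9 are AT3G11250, AT3G55750, AT5G60670, AT2G19750, AT1G16740, AT5G20160, AT4G16030, AT1G23410 and RPL21C, and AT4G25740, outside this count, is annotated as an S10 domain protein. AT3G55750, of the L35Ae family, had 38, 71 and 28 counts in A, B and C of paps1-3, AT5G60670, of the L11 family, had 25, 53 and 26, and AT2G19750 had 23, 60 and 37. These 3 were lowest in A by CPM, and only 1 of the 9 was highest there, against 121 of the 200. Among genes of the class that are not in the list, 342 could be tested, and edgeR called 208 higher (60.8%, against 42.3% over all genes) and 65 lower in paps1-3. By library totals 285 were higher and 16 lower, where 70.2% of all genes were higher. Any of the 342 near 0 in wild type passed the filter on low counts only through paps1-3, with the direction fixed. These shares are therefore not read against those over all genes. The number of ribosomal genes among the first 200 moved with the libraries used: it was 10, 6 and 8 without paps1-3 A, B and C, and 12, 11 and 17 without wild type A, B and C. With up to 1 count allowed in wild type it was 18, and with up to 3 counts 23.

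Ribosomal proteins come from small gene families whose members encode nearly the same protein, and 6 of the 9 have a relative of at least 90% identity. AT2G19750 and its closest relative AT4G29390 encode the same protein at 100% identity. AT4G29390 averaged 1.13 ± 0.29 CPM in paps1-3 and 0.146 ± 0.173 in wild type, so its level in paps1-3 lay within the spread of AT2G19750, at 1.32 ± 0.63. AT3G11250 and AT3G09200 share 98.9% of residues, and AT3G09200 averaged 8.57 ± 1.88 CPM in paps1-3 and 0.374 ± 0.237 in wild type. AT3G55750 and AT1G41880 share 99.1%, and AT1G41880 averaged 1.34 ± 0.28 CPM in paps1-3 and 0.0105 ± 0.0181 in wild type. These 3 relatives were called higher in paps1-3, with log2 fold changes of 1.63 ± 0.68, 3.28 ± 0.34 and 5.57 ± 0.92 (SE; edgeR adjusted p = 0.0360, 7.21e-09 and 1.07e-05). AT3G53430, at 95.1% identity to AT5G60670, was higher too (6.45 ± 0.79, adjusted p = 1.21e-07), with 2.49 ± 0.84 CPM in paps1-3 and 0.0105 ± 0.0181 in wild type. The other relatives did not enter the test: AT4G22380, at 99.2% identity to AT5G20160, averaged 0.276 ± 0.168 CPM in paps1-3 and 0.0820 ± 0.12 in wild type, and UBQ6, at 94.1% identity to AT1G23410, had no count in any library. A relative near 0 in wild type passed the filter on low counts only through paps1-3, so its direction was fixed. Reads shared by identical stretches are not counted for either gene, and AT3G55750 has a stretch of 229 bases elsewhere in the genome at 97% identity or more. Without the genes that have such a relative, the class made up 1.68% of the list.

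Most promoters of these genes hold a short element. The site II element TGGGCC, known from promoters of ribosomal protein and other growth genes in plants, was searched on both strands between 250 bases before and 50 bases after the annotated start. It was present in 7 of the 9 ribosomal genes, in 216 of 459 other nuclear genes of that class (47.1%), in 19.0% of the 189 protein-coding genes of the list and in 15.7% of all protein-coding nuclear genes. Among the other protein-coding genes at 0 in wild type it was present in 7.56%. Outside the ribosomal class, 29 of 180 protein-coding genes of the list had it (16.1%). The telo-box AAACCCTA, another element of such promoters, was present in 3 of the 9. A match describes the sequence only. The 120 bases before the start of the NOP56-like gene and of 5 ribosomal genes are shown because each holds the element there. Sequences are from RefSeq assembly TAIR10.1, 5′ to 3′ on the strand of the gene, with TGGGCC (or GGCCCA, its other strand) and AAACCCTA in capitals.
AT5G27120 at chr5:9540741-9540860, plus strand: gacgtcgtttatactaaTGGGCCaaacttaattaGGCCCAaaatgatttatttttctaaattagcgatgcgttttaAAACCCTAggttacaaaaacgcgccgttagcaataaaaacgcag
AT3G11250 at chr3:3521209-3521328, plus strand: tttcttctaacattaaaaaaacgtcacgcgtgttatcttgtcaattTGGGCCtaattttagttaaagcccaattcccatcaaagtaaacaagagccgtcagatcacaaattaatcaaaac
AT2G19750 at chr2:8514779-8514898, plus strand: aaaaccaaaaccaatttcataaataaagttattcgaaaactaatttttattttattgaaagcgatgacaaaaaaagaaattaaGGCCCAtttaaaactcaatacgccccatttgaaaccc
AT1G16740 at chr1:5727502-5727621, plus strand: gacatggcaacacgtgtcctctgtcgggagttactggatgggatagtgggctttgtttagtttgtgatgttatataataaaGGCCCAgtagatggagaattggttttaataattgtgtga
AT5G20160 at chr5:6805227-6805346, minus strand: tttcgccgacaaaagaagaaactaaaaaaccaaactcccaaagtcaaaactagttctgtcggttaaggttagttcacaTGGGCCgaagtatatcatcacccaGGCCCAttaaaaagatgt
AT1G23410 at chr1:8314733-8314852, plus strand: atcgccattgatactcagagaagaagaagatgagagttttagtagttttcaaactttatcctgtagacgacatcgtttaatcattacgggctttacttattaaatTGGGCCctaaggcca
In AT5G27120 and AT5G20160 the element occurs in both orientations within this window, and in the others once.

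Some further genes are named here singly, chosen after their values were seen and with no count of a class behind them. RIP1, also called MORF8, which takes part in editing of organelle RNA, had 37, 54 and 27 counts in A, B and C of paps1-3. AT1G13030, the gene for coilin, a scaffold of Cajal bodies, had 25, 22 and 13, and the small nuclear ribonucleoprotein genes AT1G20580 and AT2G14285 had 27, 41 and 10 and 14, 16 and 12. AGO3, an argonaute, had 37, 38 and 13 counts, and CRT1, the ATPase also called MORC1, had 31, 31 and 13. PAB1 here is a proteasome subunit, not a poly(A)-binding protein, and had 44, 49 and 8. NACA2, a subunit of the nascent polypeptide-associated complex, had 22, 52 and 12. All had 0 in every wild-type library, as the choice of the list requires.

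The share of disease resistance genes depended on the wild-type libraries. By product name, 5 of the 200 were disease resistance genes, or 2.5% (1.07 to 5.72%), against 0.606% of the other silent genes counted in every paps1-3 library and 0.702% of nuclear genes. They are AT1G72950, AT5G45000, AT5G41540 and AT2G14080, of the TIR-NBS type of intracellular immune receptors, and AT1G19320. AT5G45000 had 52, 23 and 10 counts in A, B and C of paps1-3 and AT2G14080 had 49, 14 and 11, both highest in A. Of the other 88 tested genes of the class, edgeR called 28 higher (31.8%, against 42.3% over all genes) and 27 lower. By library totals 52 were higher and 11 lower. Any of the 88 near 0 in wild type passed the filter on low counts only through paps1-3, so these shares are not read against those over all genes. In place of 5, the list held 0, 2 and 4 such genes without wild type A, B and C, and 4, 5 and 3 without paps1-3 A, B and C, and 0 with up to 1 count allowed in wild type.

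RBOHD, WRKY53, a factor of senescence and defence, NAC090 and CRT1 are known from defence as well. WRKY53 had 27, 20 and 11 counts in A, B and C of paps1-3 and NAC090 had 34, 27 and 13. Among 14 genes of salicylic acid and immune signalling, none of them in the list, 5 could be tested, 2 were called higher and 1 lower, and by library totals 4 higher and 1 lower. The shares over all genes were 42.3% higher and 29.9% lower, and by library totals 70.2 and 9.72%. PR5, a thaumatin-like defence protein, was higher, with 4416, 6490 and 3162 counts in A, B and C of paps1-3, against 93, 78 and 100 in wild type (log2 fold change 4.54 ± 0.18, edgeR adjusted p = 3.24e-16). SARD1, a regulator of salicylic acid synthesis, was higher too, with 40, 41 and 26 counts against 1, 0 and 0. It passed the filter on low counts only through paps1-3, so its direction was fixed. FRK1, a receptor kinase induced by bacterial flagellin, was lower, at 32, 46 and 12 counts against 56, 62 and 55.

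By product name, 2 of the 200 were counted as late embryogenesis abundant genes and 2 as seed storage genes, each 1.0% of the list (0.275 to 3.57%). The shares were 0.379 and 0.568% of the other silent genes counted in every paps1-3 library. They were 0.417 and 1.04% of all other silent genes and 0.282 and 0.564% of nuclear genes, all within the interval. SESA2, a 2S seed storage albumin, had 33, 39 and 21 counts in A, B and C of paps1-3, or 0.899, 0.947 and 1.06 CPM, against 0 in wild type. FUS3, a B3 factor that drives seed maturation, had 78, 17 and 9, so that A held 2.13 CPM against 0.413 and 0.453 in B and C. The late embryogenesis abundant genes AT5G44310 and AT3G15670, whose products accumulate as seeds dry, had 73, 37 and 10 and 14, 37 and 9 counts. AT3G04180 had 27, 33 and 21. Its product name gives only the cupin superfamily, to which storage globulins belong, and does not name a storage protein. The libraries rank differently for these genes: SESA2 was steady over the 3 libraries, FUS3 was highest in A and AT3G15670 in B.

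SESA2 and FUS3 belong to 22 seed maturation genes compared as a list, and no other list held any of the 200. Of the 22, 12 had 0 counts in wild type, and of the 20 not in the list 5 could be tested, of which edgeR called 4 higher, with TMM factors and by library totals alike. EM1, OLEO1 and E12A11 passed the filter on low counts only through paps1-3. Their direction was fixed, and the count is not read against the 42.3% over all genes. The annotated E12A11 gene, a relative of flowering-time genes that is active in seeds, had 305, 342 and 183 counts in A, B and C of paps1-3, against 3, 5 and 7 in wild type (log2 fold change 4.61 ± 0.33, edgeR adjusted p = 1.21e-11). EM1, a late embryogenesis abundant protein, had 22, 41 and 6 counts against 0, 0 and 0, and OLEO1, an oil body protein, had 20, 41 and 9 against 0, 4 and 0. SESA3, the closest relative of SESA2 with 85.9% identity, had 0 counts in all 6 libraries. ABI5, a regulator acting downstream of abscisic acid, did not pass the test, at 179, 456 and 103 counts against 257, 96 and 131.

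Markers of tissues other than pollen were also compared, since such cells could be sorted along. For 29 tapetum and anther markers, of which none is in the list, the summed level was 16.2, 6.41 and 5.14 CPM in A, B and C of paps1-3, against 2.35, 2.56 and 2.55 in wild type, and 12 of the 29 had 0 counts in wild type. Each of the 29 had a count in at least 1 paps1-3 library. Of 4 tested, 2 were called higher and 2 lower, and by library totals 2 higher. LAP6, an enzyme of sporopollenin synthesis in the tapetum, had 56, 28 and 23 counts in A, B and C of paps1-3, against 3, 2 and 3 in wild type. For 14 epidermis and vascular markers the sum was 14.6, 8.89 and 9.26 CPM in paps1-3, against 2.51, 1.98 and 2.49 in wild type, with 2 of 5 tested called higher, and 5 of 5 by library totals. For 9 root markers it was 6.32, 4.91 and 5.49 CPM against 1.75, 2.02 and 1.86. Of 3 tested, 1 was called higher and 1 lower, and by library totals 1 higher and 0 lower. For 22 leaf photosynthesis markers it was 10.2, 9.33 and 6.34 CPM against 6.36, 6.17 and 5.73, with 1 of 6 higher and 3 lower, and by library totals 2 higher and 1 lower. These sums are on library totals, by which the median log2 fold change over all genes tested was 1.62. By totals 70.2% of all genes were higher and 9.72% lower, and with TMM factors 42.3 and 29.9%. Genes near 0 in wild type, such as LAP6, passed the filter on low counts through paps1-3, so their direction was fixed. The part of such cells in the levels of the 200 genes was not tested.

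None of the other lists compared held a gene of the 200. Of 6 loci known to be kept silent by DNA methylation, 4 could be tested, 1 was called higher and 1 lower. PHE1, an imprinted MADS-box gene, was higher, with 55, 48 and 12 counts in A, B and C of paps1-3, against 0, 1 and 1 in wild type, and IBM1, a histone demethylase gene, was lower with TMM factors (−1.31 ± 0.25, edgeR adjusted p = 5.42e-05) but not by library totals (−0.07, adjusted p = 0.829). Of the tested genes, edgeR called 3 of 16 vegetative cell markers higher and 10 lower, 5 of 7 sperm cell markers lower, and 4 of 10 meiosis genes higher and 5 lower. It called 3 of 7 microspore genes higher and 3 lower, 1 of 3 floral regulators higher and 1 lower, and 2 of 4 endosperm and central cell genes higher and 1 lower. By library totals the vegetative cell markers had 6 higher and 7 lower, the sperm cell markers 1 and 2, the meiosis genes 5 and 1, the microspore genes 6 and 1, the floral regulators 1 and 0, the endosperm genes 2 and 0 and the methylated loci 2 and 0. Over all genes the shares were 42.3 and 29.9% with TMM factors, and 70.2 and 9.72% by library totals. PHE1 stands in both the endosperm list and that of methylated loci. It passed the filter on low counts only through paps1-3, so its direction was fixed, as was that of other listed genes near 0 in wild type.

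Transcription factors by product name numbered 11, or 5.5% (3.10 to 9.58%), against 6.40% of the other silent genes counted in every paps1-3 library and 4.75% of nuclear genes. The class held AT5G48560, LBD40, WRKY3, NAC090, WRKY53, GATA26 and FUS3, and by its keyword also TIM9, a chaperone of mitochondrial import. It further held AT5G41960, AT5G08750 and AT5G56900, whose product names do not state a transcription factor, so the count of 11 is too wide. LBD40, of the lateral organ boundaries family, had 44, 33 and 30 counts in A, B and C of paps1-3, and WRKY3 had 37, 29 and 18. The regulators of light responses and the circadian clock PRR9, STH and HYH are named under other words. PRR9, a repressor of morning clock genes, had 57, 26 and 15, STH, a B-box protein, had 56, 66 and 9, and HYH, the homologue of HY5, had 23, 21 and 7. STH is 1 of 35 genes of the list that lie over another annotated gene (17.5%, against 15.4% of the other silent genes counted in every paps1-3 library and 24.1% of nuclear genes), as do WRKY53, FD1 and GolS4, whose reads cannot be assigned to a strand.

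None of the 22 leaf photosynthesis markers is in the list, but single genes with products in the chloroplast are, named here after their values were seen. FD1, a ferredoxin that carries electrons, had 45, 38 and 24 counts in A, B and C of paps1-3. HCF101, which inserts iron-sulfur clusters, had 39, 27 and 25, and PTAC6, of the plastid transcription complex, had 37, 23 and 18. NYE1, also called STAY-GREEN, had 25, 18 and 20, and CYP89A9 had 24, 36 and 12, both of chlorophyll breakdown. HPT1, which commits tocopherol synthesis, had 77, 45 and 8, or 2.1, 1.09 and 0.403 CPM. The first 3 stayed within 2-fold over the libraries by CPM, while HPT1 did not.

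Cytochrome P450 genes made up 2.0% of the list (0.780 to 5.03%) against 1.44% of the other silent genes counted in every paps1-3 library and 0.654% of nuclear genes. Besides CYP89A9 they were CYP89A2, CYP706A1 and CYP706A5, with 37, 27 and 7, 20, 35 and 19, and 25, 28 and 9 counts in A, B and C of paps1-3. Transporters by product name made up 3.0%, against 2.39% of those other silent genes and 2.40% of nuclear genes. Among them were SUC9, a sucrose and proton symporter, with 33, 38 and 13 counts, and PHT1;1, the phosphate uptake carrier of roots, with 41, 18 and 12. The ABC transporter ABCG10 had 27, 29 and 12. By its product name the class also held AT3G02630, a desaturase. Cell wall enzymes made up 2.5%, against 2.69% of those other silent genes and 1.63% of nuclear genes. PME1, a pectin methylesterase, had 20, 24 and 9 counts, XTH18, a xyloglucan endotransglucosylase, had 15, 30 and 9, EXPA12, an expansin, had 23, 15 and 9, and GH9B7, of the cellulase family, had 14, 27 and 7. For all 3 classes the interval of the share included that of the other silent genes.

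A few genes known from cell division or ethylene are also named singly, after their values were seen. UVI4, an inhibitor of the anaphase-promoting complex, had 27, 30 and 19 counts in A, B and C of paps1-3. KRP2, an inhibitor of cyclin-dependent kinases, had 40, 16 and 10, and CYC3B, an A-type cyclin, had 13, 14 and 8. EIN4, an ethylene receptor, had 38, 26 and 13 counts, next to ACS7 at the synthesis step of the same hormone. The classes of lipid transfer proteins and of small secreted cysteine-rich peptides, many of which act in pollen and pistil, had no member, where small cysteine-rich peptides made up 1.55% of the other silent genes counted in every paps1-3 library.

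**Figure D3:**
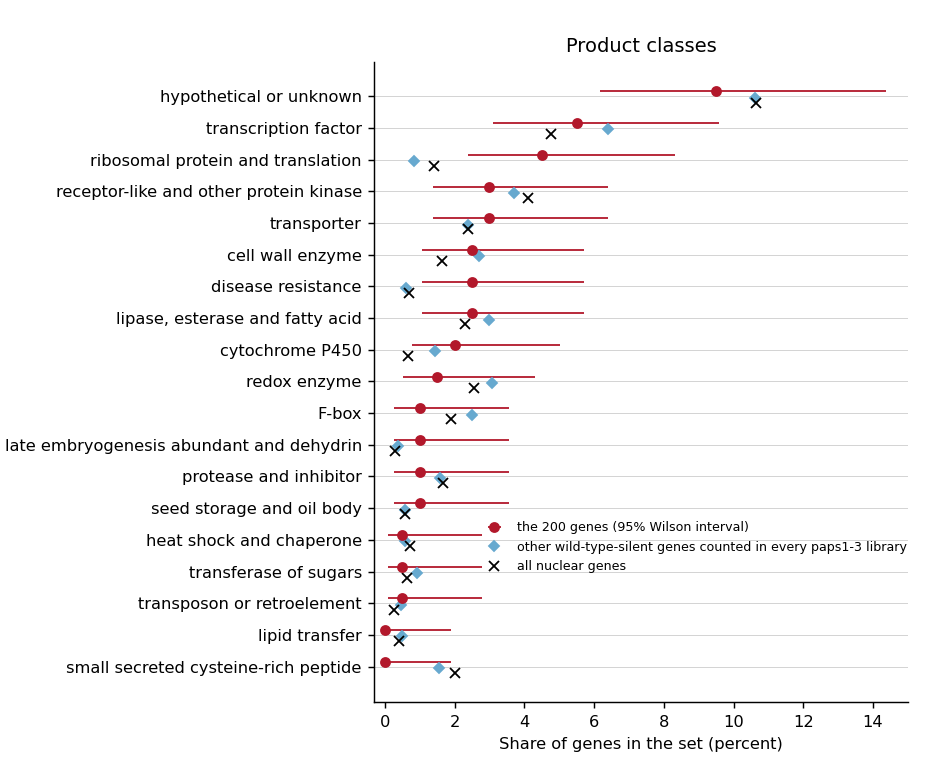
Share of each product class among the 200 genes (points with 95% Wilson interval), among the other genes at 0 in wild type with a count in every paps1-3 library, and among all nuclear genes, in percent. The ribosomal class, at 4.5% against 0.834 and 1.40%, and the disease resistance class, at 2.5% against 0.606 and 0.702%, have intervals that do not reach the other 2 sets, and the disease resistance class held no gene of the list made without wild type A.

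Pseudogenes made up a smaller share of the list than of the rest of the silent genes. Protein-coding genes made up 94.5% of it (90.4 to 96.9%), against 78.0% of the other silent genes counted in every paps1-3 library and 80.2% of nuclear genes. Pseudogenes numbered 11 and made up 5.5% (3.10 to 9.58%), against 16.5 and 11.7%, and there was no gene of a transfer RNA, microRNA or long noncoding RNA. Without paps1-3 A, B and C the list held 11, 13 and 18 pseudogenes, and without wild type A, B and C 14, 14 and 11. The list was ranked by counts not divided by length, which favours long transcripts. Its protein-coding genes had a median transcript length of 1560 bases, against 1394 in the other silent genes counted in every paps1-3 library, 1058 in all other silent genes and 1541 in all nuclear genes.

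The pseudogenes AT5G56747, AT1G36200 and AT1G35090 had 143, 140 and 44, 150, 90 and 40, and 117, 139 and 30 counts in A, B and C of paps1-3, against 0 in wild type. AT2G20460 had 96, 88 and 27. All 4 were lowest in library C by CPM. AT5G25200, annotated as a non-LTR retrotransposon, had 34, 32 and 20 counts, and 100% of its exon sequence recurs elsewhere in the genome in stretches of 100 bases or more at 97% identity. Such copies were found for 14 of the 200 genes (7.0%, against 8.24% of nuclear genes), including AT1G36200, AT1G35090, BGLU34, PRR9 and PHT1;1, and reads from them may be placed on either copy or left out.

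Nuclear copies of mitochondrial sequence were a particular case. In AT2G07815, AT2G07722, AT2G07827 and AT2G07749, between 72.8 and 100% of the length matched the mitochondrial genome. They make up 2.0% of the list (0.780 to 5.03%), against 0.682% of the other silent genes counted in every paps1-3 library and 0.336% of nuclear genes. AT2G07815, annotated as a cytochrome c biogenesis protein, had 61, 47 and 24 counts in A, B and C of paps1-3, and AT2G07749 had 28, 89 and 8. Of the other 60 tested genes with such a match, 58 were called higher (96.7%, against 42.3% over all genes), and by library totals 60, against 70.2% of all genes. Any near 0 in wild type passed the filter on low counts only through paps1-3, with the direction fixed. The shares are therefore not read against each other. Without wild type A the list held 2 such genes in place of 4, and without the other libraries between 3 and 5. The share of mitochondrion-encoded counts given above was at least 2.57% in each paps1-3 library and at most 0.0523% in each wild-type library, and its part in the counts of these 4 genes was not tested.

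The genes lay on all 5 chromosomes, with 49, 27, 50, 26 and 48 on chromosomes 1 to 5, where the shares were 24.5, 13.5, 25, 13.0 and 24.0%. Those of all nuclear genes were 25.3, 16.5, 20.2, 15.4 and 22.5%. Only AT5G17340, a putative membrane lipoprotein gene, and AT5G17350, of unknown product, stood next to each other, with 15, 23 and 25 and 25, 18 and 14 counts in A, B and C of paps1-3. Genes next to those of the list were not used to choose it. Of 397 such neighbours, 172 could be tested, and edgeR called 81 higher (47.1%) and 47 lower (27.3%), close to 42.3 and 29.9% over all genes. By library totals 125 were higher and 17 lower. Among protein-coding genes, 18.0% of the list had a single exon, against 23.0% of the other silent genes counted in every paps1-3 library and 20.6% of nuclear genes.

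Other promoter elements were counted in the same way, each set here beside its share in all nuclear genes. The abscisic acid response element ACGTGTC was present in 11 of 200 (5.5%, against 3.89%), among them KIN2, TPPB, AT5G44310, AT3G15670 and PRR9. The RY element CATGCA, a site of seed regulators, was present in 19 (9.5%, against 10.2%), among them SESA2 and FUS3, and the TATA box TATAAA in 103 (51.5%, against 49.3%). The G-box CACGTG was found in 12 (6.0%, against 6.79%) and the W-box TTGACC in 21 (10.5%, against 13.5%), all counted on both strands of the same window.

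Most of the genes belong to families with other members, and the counts of these relatives were not used to choose the list. By protein alignment, 168 of the 189 protein-coding genes had a relative, none of which is itself in the list. Of 92 relatives that could be tested, edgeR called 42 higher (45.7%) and 24 lower (26.1%) in paps1-3, where the shares over all genes were 42.3 and 29.9%. By library totals 67 were higher and 7 lower. Some of the 92, such as AT1G02070, had 0 counts in wild type and passed the filter on low counts only through paps1-3. Their direction was fixed, so these shares are not read against those over all genes. For 62 genes the relative had at least 70% identity over at least 70% of the protein. Of these 62 relatives, 16 had 0 counts in wild type, 37 were between 0 and 1 CPM there and 9 were at 1 CPM or more. Their median level was 0.527 CPM in paps1-3 and 0.0288 CPM in wild type, on library totals. Those at or near 0 in wild type could only be higher in paps1-3 or fail the filter on low counts, so no count of calls is given for the 62.

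For ACT7 and AT5G38710 the closest relative is abundant in pollen. ACT7, an actin of vegetative tissues, had 18, 20 and 11 counts in A, B and C of paps1-3, against 0 in wild type. Its closest relative ACT1, a pollen actin with 95.8% identity, had 557, 608 and 713 CPM in A, B and C of paps1-3, against 416, 474 and 412 CPM in wild type. Its direction depends on the scaling: every paps1-3 library was above every wild-type library by totals, and the log2 fold change with TMM factors was −0.71 ± 0.14 (SE, edgeR adjusted p = 7.56e-05). AT5G38710, annotated as a methylenetetrahydrofolate reductase family protein, had 47, 24 and 15 counts, and its relative ERD5, the proline dehydrogenase of mitochondria, averaged 1584 ± 145 CPM in paps1-3 and 1764 ± 72 in wild type (−1.39 ± 0.13 with TMM factors, adjusted p = 2.30e-09). AT3G57220 had a relative of moderate level, GPT at 88.9% identity, with 19.3 ± 0.98 CPM in paps1-3 and 13.4 ± 1.72 in wild type, and it too was lower with TMM factors (−0.73 ± 0.15, adjusted p = 0.000202).

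Other pairs differed more between the groups. AT3G02630, a stearoyl-acyl carrier protein desaturase that makes oleic acid, had 35, 23 and 20 counts in A, B and C of paps1-3, against 0 in wild type. Its relative AT5G16240 averaged 75.4 ± 4.82 CPM in paps1-3 and 11.1 ± 2.05 in wild type (log2 fold change 1.53 ± 0.15, edgeR adjusted p = 4.74e-09). AT3G43740, a leucine-rich repeat gene, had 25, 16 and 10 counts, and its relative AT5G21090 averaged 29.2 ± 2.73 CPM in paps1-3 and 1.43 ± 0.13 in wild type (3.10 ± 0.18, adjusted p = 3.35e-13). For AT2G28310, with 40, 38 and 15 counts, the relative AT1G08040 went the other way, at 8.00 ± 0.91 CPM in paps1-3 and 16.6 ± 0.52 in wild type (−2.30 ± 0.15, adjusted p = 2.48e-12). KIN2 had 2.64, 2.36 and 1.66 CPM in paps1-3 A, B and C, and its relative KIN1 had 1.2, 0.194 and 0.252 CPM there and 0 in wild type. The NOP56-like AT5G27120 averaged 2.60 ± 0.43 CPM in paps1-3, and its relative AT3G05060 averaged 1.69 ± 0.37 in paps1-3 and 0.0102 ± 0.0176 in wild type.

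**Figure D4:**
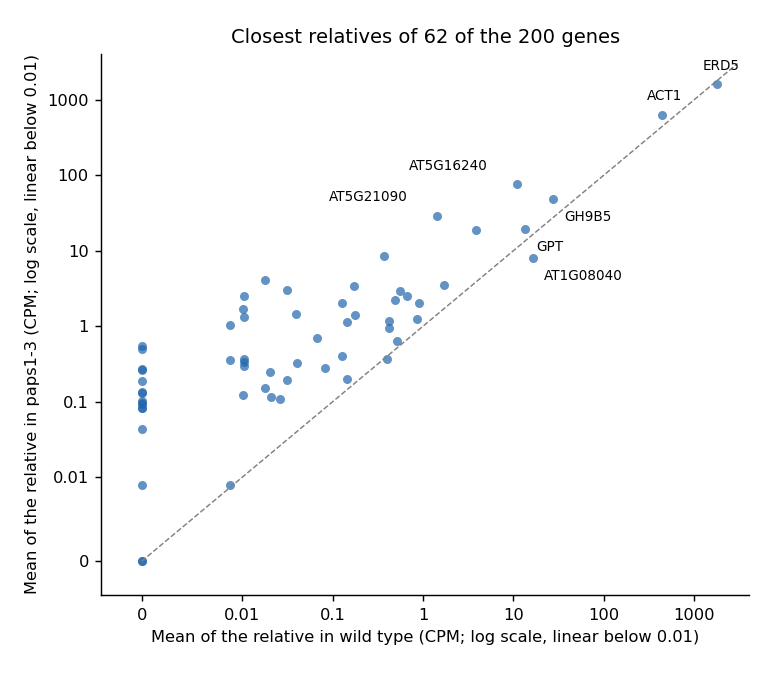
Mean CPM of the closest relative in paps1-3 (vertical axis) and in wild type (horizontal axis) for the 62 genes whose relative has at least 70% identity and cover, on log scales that are linear below 0.01, with a dashed line at equal values. The 16 relatives without a wild-type count lie at 0 on the horizontal axis, and ACT1 stands at 412 CPM or more in each library of both groups.

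Agreement between the 3 paps1-3 libraries varied from gene to gene. The coefficient of variation (SD over mean, n = 3) had a median of 0.316, against 0.661 for the other silent genes counted in every paps1-3 library, and ranking by the lowest library favours low values. It was lowest for AT3G02670, a glycine-rich protein (0.0481), AT3G11250 (0.0647) and AT4G16030, of the ribosomal L19e family (0.0686). Over the 3 libraries, 117 genes stayed within 2-fold and 14 spanned over 4-fold.

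Library A held the highest CPM for 121 of the 200 genes (60.5%), B for 42 and C for 37, and A was also the highest for 67.7% of the other silent genes counted in every paps1-3 library. The excess was large for a few. AT1G21810, a filament-like protein, had 156 counts in A and 19 and 7 in B and C, or 4.25 CPM against 0.461 and 0.352, and the highest coefficient of variation (1.315). PAP1, an auxin response regulator also called IAA26, had 78, 16 and 7 counts (1.06), and GolS4, a galactinol synthase of the raffinose pathway, had 82, 20 and 7. In A, 41 genes were over 2 times the mean of B and C and 6 over 4 times, while AT2G19750 and AT5G17340 were under 0.5 times. Library A also had the largest summed level of the tapetum markers (16.2 CPM), of which GRP17 had 179 counts in A and 21 and 5 in B and C. The sums of the epidermis and vascular (14.6 CPM), leaf (10.2) and root (6.32) markers were largest in A too. So were those of the meiosis, floral and endosperm lists and of the methylated loci. The sums of the remaining lists were not, such as seed maturation (22.0 CPM in A and 27.4 in B). The part of these levels in the 200 genes was not tested.

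**Figure D5:**
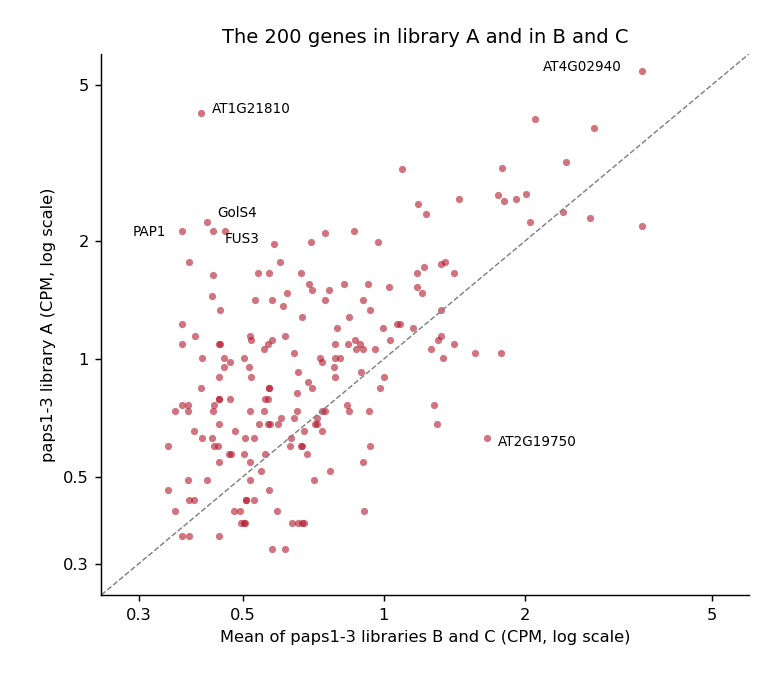
CPM in paps1-3 library A against the mean of libraries B and C for the 200 genes, on log scales, with a dashed line at equal values. More points lie above the line than below it, with AT1G21810 at 4.25 CPM in A, and AT2G19750 lies below it.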

How the data were processed

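The authors deposited raw counts of reads per gene for each of 6 pollen libraries (3 paps1-3, 3 wild type). Reads were aligned with TopHat2 and counted with HTSeq on TAIR10, per the submitters' processing notes; the sources used here give no options or versions. RNA was amplified with the Ovation RNA-seq system v2, per the labels' protocols, a kit that does not mark strand, so reads of overlapping genes cannot be assigned by strand; those HTSeq called ambiguous were 2.24 to 2.64% of reads. Reads in HTSeq's summary categories (such as reads placed at several positions, 9.84% ± 1.87 of reads in paps1-3 and 5.59% ± 0.48 in wild type, SD, n = 3 each) name no gene and were left out, as were organelle genes from the choice of members.

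CPM were computed from the gene counts of each library, without TMM factors. Gene names, product names, transcripts and promoters came from the RefSeq annotation of TAIR10.1, which matched 32835 of 33323 nuclear identifiers. Relatives and copies were found with BLAST 2.17.0. Differential expression over 14273 genes used edgeR 4.0.16 (R 4.3.3), quasi-likelihood test, TMM, filterByExpr, genotype only, Benjamini-Hochberg adjusted p below 0.05, and was tested on simulated data. Alternatives were library totals, DESeq2 1.42.0, other filters, left-out libraries and the letters A to C as a block. The 200 genes, the 13 gene lists (198 entries, of which 14 did not match their symbol and 1 was not analysed here), the classes and the motifs were chosen with earlier results of these data known. Named genes were the ranks 1 to 20, 196 to 200 and 201 to 205, those highest per kb, up to 4 of each class or list, those of extreme variation, adjacent genes, their closest relatives and the called genes of smallest p in each list; others (such as cell division, chloroplast and light genes and the promoters shown) were chosen after their values were seen. Libraries of a group differed beyond sampling noise (chi-square per degree of freedom of 17.8 to 35.7), so each was counted as 1 sample. Intervals (95%, Wilson for shares, exact Poisson for counts) cover counting error only.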

Additional observations from a re-analysis of the deposited data

Results flagged for a closer look

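Outside the gene counts, reads placed at several positions made up a larger share in paps1-3 than in wild type, where they serve as the control level. The share averaged 9.84% in the paps1-3 libraries (10, 7.90 and 11.6% in A, B and C) and 5.59% in the wild-type libraries (6.14, 5.30 and 5.32%), with no overlap between the groups. Such reads are counted for no gene, and 14 of the 200 genes have near-identical copies elsewhere in the genome. The part of this share in the levels of the 200 genes was not tested.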

How the results depend on the processing

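The list itself depended most on the limit in wild type. Of the 200 genes, 78 were kept with at most 1 count allowed over the wild-type libraries, 29 with at most 3, and 103 with all libraries thinned to the shallowest. Leaving out 1 library kept between 84 and 183: 84, 127 and 97 without wild type A, B and C, and 183, 147 and 148 without paps1-3 A, B and C. The first 20 stayed in under each of these. Under all of them together with ranking by mean CPM, by TMM-scaled CPM and by lowest CPM per kb, 28 genes stayed in. By library totals in place of TMM, 10018 genes were called higher and 1387 lower instead of 6037 and 4272, 125 neighbours higher instead of 81, and of the list genes outside the 200, 40 higher and 13 lower instead of 25 and 33. With at least 1 CPM in 3 libraries, 16 list genes were higher. The ribosomal share fell to 1.68% without genes that have a relative of at least 90% identity. The cause of these shifts was not tested. With the letters as a replicate block, 6116 genes were higher and 4426 lower, 80 neighbours higher, and 25 list genes higher and 32 lower. The labels do not say what the letters mark, and the correlation of deviations was 0.231, 0.0989 and 0.0755 for A, B and C, so the letters were not taken to pair the libraries. The other settings, DESeq2 included, left each count within 1.5 times. Depth limits single values: 13 counts in paps1-3 B gave 0.316 CPM with an exact Poisson interval of 0.168 to 0.540.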
